A study of Mus musculus with 17 samples.

Results

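Head-to-head gene pairs are neighbours on opposite strands whose transcription starts face away from each other across a short stretch of DNA. They were taken from the transcript annotation that the authors assembled de novo from the RNA of mouse male germ cells. A gene on the minus strand was paired with a gene on the plus strand of the same chromosome that starts 0 to 1000 bp to the right of its own start, and each had to be the nearest such partner of the other. The rule gave 1815 pairs, which hold 3630 of the 27289 de novo genes (13.3%). De novo genes that overlap no GENCODE M21 gene on their own strand are called unannotated here and carry their StringTie name (MSTRG and a number), and the others are called reference genes.

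The study sequenced RNA of sorted testis cells at 5 stages of male germ cell development, with 3 libraries a stage. Meiotic cells were split into leptotene and zygotene spermatocytes (LZ) and pachytene and diplotene spermatocytes (PD). Haploid cells were split into round spermatids (RS) and, by how far they had elongated, into early (EES) and late (LES) elongating spermatids. All 15 libraries came from wild-type C57BL/6JRj males of 3 months, and the cells were sorted after Hoechst 33342 and SYTO 16 staining. A further 2 samples, of 17 in all, were stained with Hoechst without SYTO 16 and have 1 library each: round spermatids whose title gives juveniles of 23 dpp, and elongating spermatids whose title gives a Prm1-EGFP sort. The labels of both carry the same age and wild-type genotype as the rest, which the titles go against; the titles were followed, and neither library entered a test. Whether the libraries of a stage came from different animals is not stated in the sources, and every p-value therefore rests on a spread between libraries that may be technical.

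Library totals were not given and were worked out from the whole-read steps of the deposited values, as the total that scales them. They ran from 90553570 to 159185303 reads, and paired genes took 14.2 to 18.7% of the reads counted on de novo genes. The LZ markers Dmc1, Sycp3 and Stra8 summed to 504 to 673 RPKM (reads per kilobase of exon, scaled to library size) in LZ and 109 to 136 in PD, and the elongating spermatid markers Tnp1, Prm1 and Odf1 summed to 25598 to 67938 in EES and 437 to 904 in RS. The Sertoli cell markers (all 5 of 5 in the table) summed to 37.4 to 65.1 RPKM in LZ and to 0.596 to 0.924 in PD, where 2 of the 5 were below 0.1 RPKM in every library. Their sum was 1.07 to 1.36 RPKM for RS, 3.61 to 11.3 for EES and 7.19 to 25.8 for LES. That of Tnp1, Prm1 and Odf1 was 411 to 646 RPKM for LZ, against 35.1 to 134 for PD. Whether RNA of other cells gave part of these levels, or of those of single genes below, was not tested. The third LZ library lay nearer to PD (Spearman's rho across genes 0.712 to 0.741) than the other LZ libraries (0.575 to 0.614), and the second EES library lay between RS and the other EES libraries, with a rho of 0.671 to 0.717 against RS and of 0.832 to 0.886 against EES. In bulk RNA of sorted cells, fewer cells of a type and less RNA per cell cannot be told apart.

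Many mammalian genes start within a CpG island, a stretch rich in the dinucleotide CpG, and such promoters often start transcripts in both directions. Where both transcripts are stable, the result is a bidirectional promoter with a gene on each side; known cases join housekeeping genes, histone genes and DNA repair genes. The male germ line transcribes an unusually large part of the genome in meiosis and in round spermatids, silences the X and Y chromosomes during the pachytene stage, and shuts transcription down as the spermatid elongates, so RNA of late spermatids is largely stored RNA.

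The stretch between both starts is printed here for 8 pairs that show the main behaviours described below: a known housekeeping pair, pairs that moved together at each step, pairs that moved apart, and a pair on the X chromosome. The sequences are RefSeq promoter sequence of GRCm38.p6, on the plus strand and 5′ to 3′. Capitals run from the start of the minus-strand gene to the start of the plus-strand gene, both bases included, and 25 bases of each transcript stand in lower case on either side. In all, 459 of the 1815 pairs had both starts within 1 window of the RefSeq table.
Hspd1/Hspe1, chr1:55088211-55088278: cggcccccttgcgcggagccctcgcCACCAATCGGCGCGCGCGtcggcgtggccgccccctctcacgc
Pts/Gm47077, chr9:50528671-50528745: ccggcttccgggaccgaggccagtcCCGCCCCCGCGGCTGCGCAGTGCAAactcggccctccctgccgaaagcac
Hist1h2bl/Hist1h2ai, chr13:21716192-21716416: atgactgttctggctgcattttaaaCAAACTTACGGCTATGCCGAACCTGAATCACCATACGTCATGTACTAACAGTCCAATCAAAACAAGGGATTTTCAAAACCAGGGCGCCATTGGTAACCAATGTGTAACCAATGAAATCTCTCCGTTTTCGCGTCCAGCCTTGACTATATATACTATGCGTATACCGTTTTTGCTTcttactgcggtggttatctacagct
MSTRG.8123/Erich6b, chr14:75642149-75642244: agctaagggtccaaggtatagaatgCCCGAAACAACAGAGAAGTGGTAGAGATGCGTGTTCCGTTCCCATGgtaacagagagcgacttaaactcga
MSTRG.4238/Phospho1, chr11:95824351-95824527: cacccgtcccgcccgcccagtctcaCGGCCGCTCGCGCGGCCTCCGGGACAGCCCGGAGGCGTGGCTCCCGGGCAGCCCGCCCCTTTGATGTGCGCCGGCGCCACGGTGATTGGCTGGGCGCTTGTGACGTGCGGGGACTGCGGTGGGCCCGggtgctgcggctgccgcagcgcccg
Iqca/4930434B07Rik, chr1:90153498-90153556: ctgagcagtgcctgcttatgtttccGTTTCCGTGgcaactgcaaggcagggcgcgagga
Dydc2/Dydc1, chr14:41072691-41072876: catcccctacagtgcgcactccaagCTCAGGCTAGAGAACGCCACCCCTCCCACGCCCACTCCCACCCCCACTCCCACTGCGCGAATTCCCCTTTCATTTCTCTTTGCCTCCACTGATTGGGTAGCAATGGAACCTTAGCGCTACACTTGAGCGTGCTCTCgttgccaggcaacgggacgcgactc
F8/Fundc2, chrX:75382305-75382447: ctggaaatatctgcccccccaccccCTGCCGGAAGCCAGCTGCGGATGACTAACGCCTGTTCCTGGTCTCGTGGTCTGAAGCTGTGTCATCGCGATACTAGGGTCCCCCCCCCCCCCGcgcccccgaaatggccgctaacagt

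The starts of the pairs lay close together, and most pairs joined a coding gene to a transcript that makes no known protein. The median distance was 106 bp (interquartile range 48 to 274.5 bp), and 477 pairs (26.3%) were within 50 bp. A coding gene faced an unannotated gene in 805 pairs, a noncoding reference gene in 367 and another coding gene in 323. Of the rest, 131 joined a noncoding reference gene to an unannotated gene, 155 joined unannotated genes on both sides and 34 joined noncoding reference genes on both sides. The 1246 unannotated members were short, with a median exon length of 1273 bases against 3986 bases in the reference members, and 52.1% of them had a single exon, against 47.3% of the 8440 unannotated genes outside pairs.

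**Figure D1:**
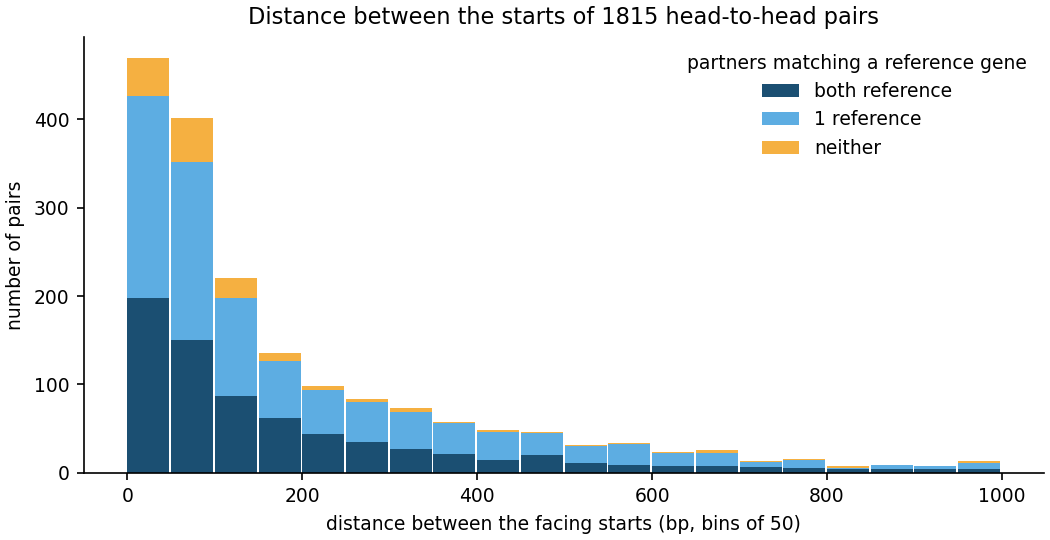
Number of head-to-head pairs (vertical axis) by distance between the starts in bins of 50 bp (horizontal axis), coloured by whether both partners, 1 partner or neither is a reference gene. The first bin is the tallest in the plot, and 182 pairs are spread over 501 to 1000 bp.

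Pairs were spread evenly over the autosomes and rare on the sex chromosomes. Between 10.9 and 16.2% of the de novo genes of each of the 19 autosomes were in a pair, against 3.29% on the X (14 pairs) and 1.25% on the Y (1 pair). At the edge of the rule, the 21 pairs with starts 901 to 1000 bp apart (13 with both genes tested) had a median correlation between partners of 0.34, and the 16 neighbours 1001 to 1100 bp apart (10 tested) had one of 0.82.

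Only genes with 1 RPKM or more in 3 or more of the 15 libraries were tested. Both partners passed in 1092 pairs, 1 partner in 638 and neither in 85, so 2822 of the 3630 paired genes were tested among 21515 de novo genes. The sources do not say whether reads were counted by strand. The 242 single-exon genes that lie inside exons of the other strand had a median correlation of 0.94 with their host, but neighbours on the same strand that share no exon with the other strand had one of 0.88, so the correlation does not settle it. The nested genes differed from their host by a median log2 value of -0.21 (interquartile range -2.19 to 0.83). Reads on de novo genes summed to 108, 97.9 and 107% of the library total in EES and 106, 106 and 105% in LES. For the libraries of LZ, PD and RS the sums were 54.2 to 92.0%. Only 21 de novo genes share exon bases on their own strand, while 38.4% share them with the other strand. Whether counting without strand gave these sums was not tested. Counted so, reads from shared exons could be counted for the gene on either strand. Counts are therefore also given for the 588 tested pairs in which neither partner shares exon bases with the other strand, and the pairs named with library values are from these unless stated.

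Hspd1/Hspe1, a textbook bidirectional pair, met the rule. Hspd1 (chr1:55075711-55088236) and Hspe1 (chr1:55088253-55091448) encode the mitochondrial chaperonin Hsp60 and its partner Hsp10, and their starts are 17 bp apart. Hspd1 was at 16.6, 12.4 and 12.6 RPKM in LZ, 0.179, 0.220 and 0.186 in PD, 0.311, 0.287 and 0.301 in RS, 0.103, 0.291 and 0.166 in EES and 0.228, 0.241 and 0.534 in LES. Hspe1 was at 33.0, 25.6 and 24.2 RPKM in LZ, 1.62, 1.04 and 0.835 in PD, 4.43, 2.78 and 2.85 in RS, 0.0556, 1.81 and 0.561 in EES and 0.760, 0.505 and 1.28 in LES. Both genes were thus high in the LZ libraries alone, with no overlap between LZ and PD. From LZ to PD Hspd1 fell by 6.07 ± 0.40 (SE) and Hspe1 fell by 4.60 ± 0.84 on the log2 scale, with adjusted p of 4.77e-08 and 0.000274 (limma moderated test, Benjamini-Hochberg adjusted over 21515 genes, 3 libraries a stage, as for every adjusted p of single genes below). The fall ran beside that of the Sertoli markers, whose part in the result was not tested.

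**Figure D2:**
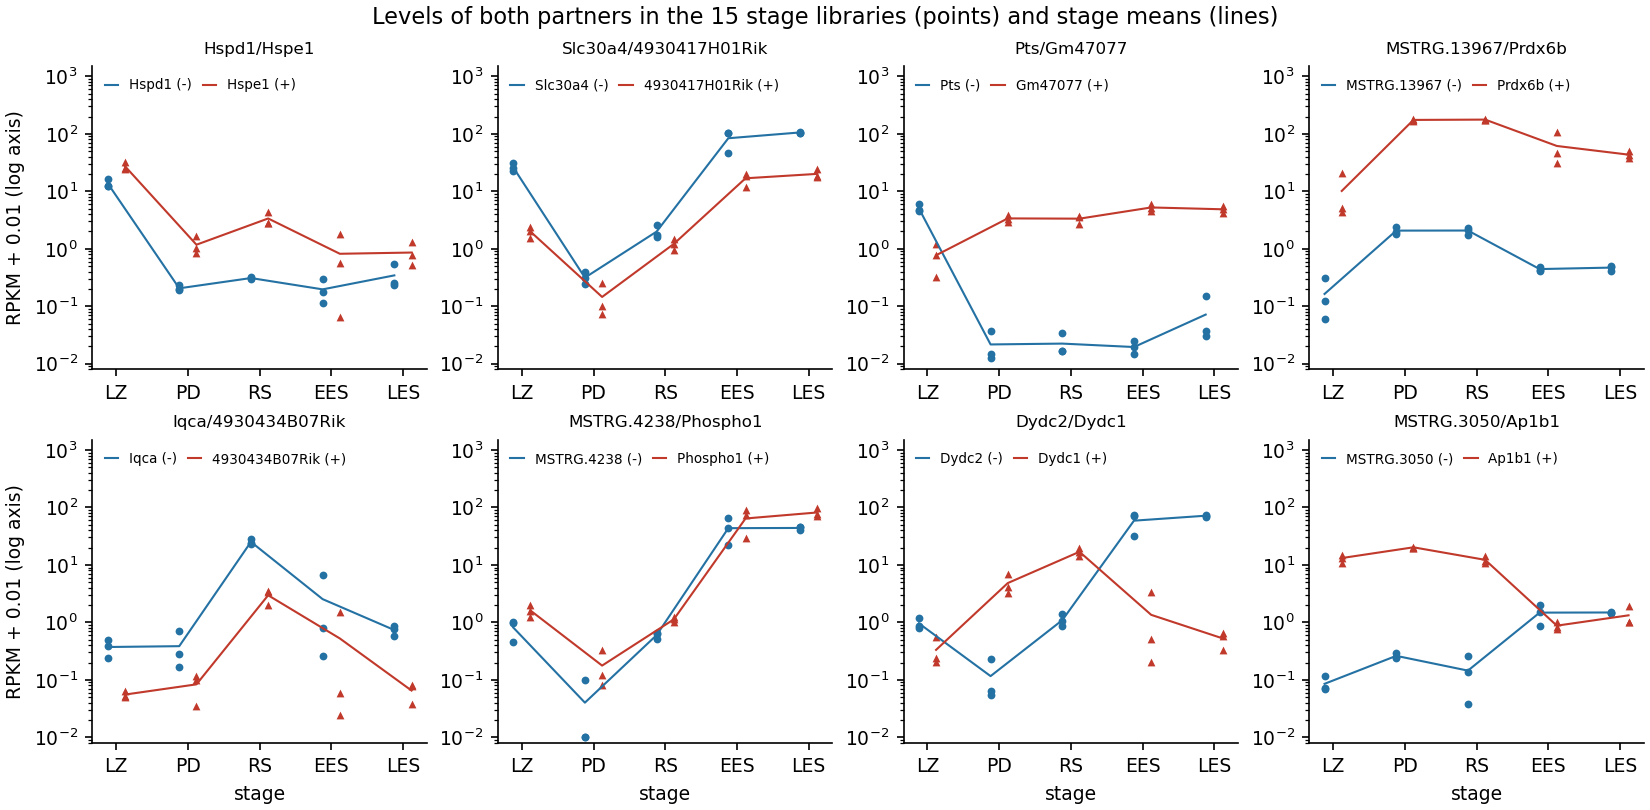
Levels of both partners of 8 head-to-head pairs in RPKM plus 0.01 (vertical log axis) in the 15 libraries of the stages LZ, PD, RS, EES and LES (horizontal axis); circles are the minus-strand partner, triangles the plus-strand partner and lines join stage means. Hspd1 and Hspe1 fall together from LZ to PD, Pts and Gm47077 cross between these stages, and Dydc2 and Dydc1 cross between RS and EES.

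From LZ to PD, the paired genes divided into rises and falls, and partners often parted. Of the 2822 tested paired genes, 764 rose and 880 fell, that is 27.1 and 31.2% against 26.6 and 32.3% of all tested de novo genes, or 58.9% of them in either direction. A call needed an adjusted p under 0.05 (limma) and a log2 change of at least 1, on the scale of log2(RPKM + 0.01), which understates changes of low genes. Both partners rose in 128 of the 1092 pairs, both fell in 122, and they were called in opposite directions in 144; 499 pairs had 1 partner called and 199 none. Among pairs without shared exons the counts were 73, 80 and 84 of 588. Without the third LZ and the second EES library, both rose in 16.0% and both fell in 8.14% of the pairs tested, against 11.7 and 11.2% with all libraries. The share with both falling ranged from 6.87% (without the second LZ library) to 13.0% over the single libraries left out. With each library centred on its median, 56.8% of the calls of paired genes were rises, against 46.5% as deposited; centring moved the median change of all tested genes from -0.23 to 0.16.

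Ranked by the smaller of both partners' changes, the 2 named pairs with the largest shared fall each joined an H2A to an H2B histone gene, whose products pair up in the nucleosome. Hist1h2bn (chr13:21754045-21754539) was at 67.6, 92.4 and 57.8 RPKM in LZ and at 0.147, 0.0990 and 0.103 in PD. Its partner Hist1h2ak (chr13:21753222-21753862) was at 13.0, 27.6 and 17.8 RPKM in LZ and at 0.0850, 0.0255 and 0.0227 in PD. All LZ libraries of both genes were above all PD libraries, and the log2 changes were -9.16 ± 0.43 and -8.60 ± 0.77 (adjusted p = 6.29e-09 and 6.01e-07, limma). In the other pair, shown above by sequence, Hist1h2bl fell by 7.24 ± 0.87 and Hist1h2ai fell by 8.14 ± 0.70 (adjusted p = 7.52e-06 and 4.32e-07, limma). Histone genes of this cluster are near-identical copies, so the split of reads between them is uncertain.

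MSTRG.13967/Prdx6b rose together. Prdx6b (chr2:80292467-80295436) is an intronless relative of the peroxiredoxin gene Prdx6, whose reads could be shared with it, and MSTRG.13967 (chr2:80277714-80292454) is an unannotated gene with 4 exons that starts 13 bp away. Prdx6b was at 5.17, 4.34 and 20.9 RPKM in LZ, 183, 166 and 175 in PD, 180, 174 and 176 in RS, 30.6, 108 and 45.5 in EES and 50.1, 42.6 and 37.6 in LES. MSTRG.13967 was at 0.0496, 0.114 and 0.297 RPKM in LZ, 1.81, 1.98 and 2.38 in PD, 2.31, 1.74 and 2.15 in RS, 0.408, 0.475 and 0.416 in EES and 0.480, 0.495 and 0.406 in LES. Both were lowest in LZ, with the third LZ library the highest of the 3, and their PD and RS values overlapped. Their rises from LZ to PD were 4.49 ± 0.51 and 3.97 ± 0.45 (adjusted p = 4.94e-06 and 4.48e-06, limma), and the log2 change of their ratio was -0.52 ± 0.45 (adjusted p = 0.332, limma, adjusted over 2200 neighbouring pairs, as for every ratio below), so a difference between the partners was not detected.

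Pts/Gm47077 moved apart at this step with starts 24 bp apart. Pts (chr9:50521613-50528696) encodes an enzyme of tetrahydrobiopterin synthesis, and Gm47077 (chr9:50528720-50533832) is a noncoding reference gene. Pts was at 5.91, 4.63 and 4.53 RPKM in LZ and at 0.00264, 0.00474 and 0.0275 in PD, and it stayed at or under 0.138 in all later libraries. Gm47077 was at 0.755, 0.308 and 1.22 RPKM in LZ, 3.79, 2.96 and 3.35 in PD, 3.51, 2.70 and 3.77 in RS, 5.98, 5.10 and 4.59 in EES and 5.43, 5.0 and 4.13 in LES. The libraries of LZ were the highest for Pts and the lowest for Gm47077, with no overlap with PD in either gene. The log2 changes were -8.03 ± 0.63 and 2.33 ± 0.38 (adjusted p = 2.12e-07 and 9.71e-05, limma), and the ratio of Gm47077 to Pts rose by 10.36 ± 0.70 (adjusted p = 7.05e-08, limma).

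Rab42/MSTRG.17698 and Abca17/Abca3 also parted, with starts 495 and 932 bp apart. Rab42, a small GTPase of the Rab family, was at 0.280, 0.197 and 0.697 RPKM in LZ and 6.10, 5.34 and 6.39 in PD, while the unannotated MSTRG.17698 was at 4.86, 5.67 and 3.07 in LZ and had 4 reads in all in PD. Abca17, an ABC transporter gene expressed in testis, was at 0.914, 1.22 and 3.58 RPKM in LZ and 21.3, 22.9 and 30.0 in PD. Its partner Abca3, which encodes a lipid transporter, was at 3.61, 2.76 and 2.66 RPKM in LZ and 0.203, 0.147 and 0.121 in PD. In each of these 4 genes the LZ and PD libraries did not overlap. The log2 changes were 4.09 ± 0.46 in Rab42 and -8.03 ± 0.90 in MSTRG.17698, and 3.94 ± 0.42 in Abca17 and -4.19 ± 0.38 in Abca3 (adjusted p from 6.58e-07 to 4.67e-06, limma).

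From PD to RS, paired genes more often rose than fell on the deposited scale, and partners were seldom called in opposite directions. Of the 2822 genes, 747 rose and 413 fell (26.5 and 14.6%), against 30.2 and 12.6% of all tested de novo genes, or 42.7% of them in either direction. Both partners rose in 164 of 1092 pairs and both fell in 51, while 17 were called in opposite directions. The ratio between partners nevertheless changed in 367 pairs (33.6%). Of the pairs with both partners called, 92.7% moved the same way, compared with 63.5% from LZ to PD. Among the 588 pairs without shared exons both rose in 123, both fell in 30 and 7 were opposite. The split depended on the scale: rises made up 64.4% of the calls as deposited, 50.8% with median centring and 42.5% with quantile normalisation, which moved the median change of all tested genes from 0.23 to -0.13 and -0.17. Both partners rose in 15% of pairs as deposited and in 8.06% with quantile normalisation. Both fell in 4.67% as deposited, in 9.43% with median centring, in 10.4% with quantile normalisation and in 2.54% without the first PD library.

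MSTRG.8123/Erich6b showed the shared rise of this step. The unannotated MSTRG.8123 (chr14:75638595-75642174) was at 0.00782, 0.0211 and 0.182 RPKM in PD, 3.44, 5.43 and 5.58 in RS, 1.29, 3.39 and 1.46 in EES and 1.95, 1.74 and 1.65 in LES. Erich6b (chr14:75642219-75698963), a coding gene, was at 0.0729, 0.106 and 0.225 RPKM in PD, 5.06, 6.29 and 5.33 in RS, 0.743, 3.73 and 1.14 in EES and 1.02, 0.913 and 0.802 in LES. The RS libraries were above all PD libraries in both genes, and the second EES library was the highest of its stage in both. MSTRG.8123 rose by 6.64 ± 1.03 and Erich6b by 5.4 ± 0.53 from PD to RS (adjusted p = 0.000115 and 2.43e-06, limma). Olfr697 and Olfr701, 2 genes of the olfactory receptor family with starts 36 bp apart, rose by 5.55 ± 0.46 and 5.53 ± 0.60; members of this family resemble each other, so their reads are uncertain.

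Rfxap/MSTRG.15529 fell together at this step. Rfxap, which encodes a subunit of the RFX complex at MHC class II promoters, was at 4.86, 4.89 and 5.41 RPKM in PD and 0.468, 0.791 and 0.573 in RS. Its unannotated partner, 387 bp away, was at 0.836, 0.691 and 0.370 RPKM in PD and 0.0212, 0.0249 and 0.0172 in RS. Neither gene overlapped between these stages, and the log2 changes were -3.06 ± 0.49 and -4.30 ± 0.46 (adjusted p = 0.000143 and 4.69e-06, limma). Among the few opposite pairs, Znrf3, which encodes a ubiquitin ligase acting on Wnt receptors, was at 0.0779, 0.0953 and 0.0897 RPKM in PD and 0.547, 0.735 and 0.783 in RS. Its unannotated partner MSTRG.3060, 461 bp away, was at 1.45, 1.34 and 1.18 RPKM in PD and 0.715, 0.538 and 0.452 in RS. Znrf3 rose by 2.83 ± 0.50 and MSTRG.3060 fell by 1.22 ± 0.29 (adjusted p = 0.000344 and 0.00322, limma), but under quantile normalisation the change of Znrf3 was 0.83 with an adjusted p of 0.146.

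1700007K13Rik/Mrps2 had the largest ratio change of this step among named pairs without shared exons. The coding gene 1700007K13Rik was at 0.168, 0.192 and 0.746 RPKM in PD and 19.6, 19.4 and 19.3 in RS, a rise of 6.02 ± 0.59 (adjusted p = 2.63e-06, limma). Mrps2, which encodes a protein of the mitochondrial ribosome and starts 752 bp away, was at 2.39, 2.57 and 1.87 RPKM in PD and 1.28, 1.60 and 1.46 in RS. Its change of -0.64 ± 0.44 was not called (adjusted p = 0.255, limma), although the stages did not overlap; with median centring it was -1 and was called (adjusted p = 0.0116, limma). The Mrps2 to 1700007K13Rik ratio fell by 6.66 ± 0.50 (adjusted p = 7.78e-07, limma).

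From RS to EES, falls prevailed among paired genes, and most partners called together went the same way. In this step 554 genes rose and 1447 fell (19.6 and 51.3%), against 23 and 47.3% of all tested de novo genes, or 70.4% of them in either direction. Both partners fell in 367 of 1092 pairs, both rose in 122, and 73 were opposite. Among the pairs without shared exons these counts were 179, 95 and 38 of 588. Rises made up 27.7% of the calls as deposited and 38.0% with median centring, which moved the median change of all tested genes from -1.05 to -0.43. Both partners fell in 33.6% of the pairs as deposited, in 21.2% with median centring and in 21% with quantile normalisation. Without the third LZ and the second EES library both fell in 38.0%.

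MSTRG.4238/Phospho1 was 1 of the 2 named pairs with the largest shared rise, ranked by the smaller change. Phospho1 (chr11:95824502-95832148) encodes a phosphatase known from bone mineralisation, and the unannotated single-exon MSTRG.4238 (chr11:95823569-95824376) starts 126 bp away. Phospho1 was at 1.24, 1.53 and 2.02 RPKM in LZ, 0.0724, 0.112 and 0.316 in PD, 0.993, 1.13 and 1.23 in RS, 88.7, 29.6 and 74.2 in EES and 78.1, 97.1 and 69.8 in LES. MSTRG.4238 was at 0.437, 0.953 and 1.02 RPKM in LZ, 0, 0 and 0.0901 in PD, 0.505, 0.611 and 0.654 in RS, 64.8, 22.3 and 43.5 in EES and 40.9, 44.8 and 46.0 in LES. Every elongating spermatid library was above every earlier one in both genes, the second EES library being the lowest of these, and the partners had a correlation of 0.99 over the 15 libraries. The rises from RS to EES were 5.69 ± 0.47 and 6.06 ± 0.71 (adjusted p = 3.99e-07 and 6.72e-06, limma), and the change of their ratio was 0.37 ± 0.41 (adjusted p = 0.447). At the earlier steps the ratio of MSTRG.4238 to Phospho1 changed by -1.74 ± 0.41 from LZ to PD and 1.87 ± 0.41 from PD to RS (adjusted p = 0.00214 and 0.00267, limma). With a pseudocount of 0.1 RPKM these 2 changes were -0.04 and 0.18. Wnt3, a secreted signalling protein gene, and its unannotated neighbour MSTRG.4515, 293 bp away, rose by 4.77 ± 0.35 and 5.75 ± 0.36 (adjusted p = 1.69e-07 and 8.03e-08, limma). These rises were unequal: the ratio of MSTRG.4515 to Wnt3 rose by 0.99 ± 0.27 (adjusted p = 0.00643, limma), just under the fold needed for a call. Wnt3 was at 1.46, 1.98 and 2.16 RPKM in RS and 72.8, 28.5 and 61.9 in EES.

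Slc30a4 and 4930417H01Rik changed in the same direction at every step up to EES, but not by the same amount at each. Slc30a4, which encodes a zinc transporter, was at 30.7, 22.1 and 25.7 RPKM in LZ, 0.299, 0.229 and 0.385 in PD, 1.70, 1.62 and 2.62 in RS, 102, 46.9 and 103 in EES and 104, 105 and 108 in LES. The noncoding 4930417H01Rik, 221 bp away, was at 2.36, 1.54 and 2.05 RPKM in LZ, 0.0644, 0.0927 and 0.248 in PD, 0.953, 1.18 and 1.48 in RS, 18.6, 11.8 and 20.1 in EES and 24.1, 18.4 and 17.8 in LES. Both were lowest in PD and highest in elongating spermatids, and neighbouring stages up to EES did not overlap. Slc30a4 changed by -6.40, 2.66 and 5.34 (SE 0.31) in the 3 steps and 4930417H01Rik by -3.97, 3.25 and 3.78 (SE 0.40), with adjusted p of at most 1.48e-05 (limma). The ratio of 4930417H01Rik to Slc30a4 rose by 2.43 ± 0.34 from LZ to PD (adjusted p = 3.30e-05, limma) and fell by 1.57 ± 0.34 from RS to EES (adjusted p = 0.00138, limma), where it was -0.83 with quantile normalisation (adjusted p = 0.0274). From PD to RS its change was 0.60 ± 0.34 (adjusted p = 0.193, limma).

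Iqca/4930434B07Rik, with starts 8 bp apart, was high in round spermatids and low before and after. Iqca (chr1:90041635-90153523) encodes a protein with an IQ motif, and 4930434B07Rik (chr1:90153531-90159593) is a lincRNA gene. Iqca was at 0.380, 0.228 and 0.479 RPKM in LZ, 0.160, 0.273 and 0.691 in PD, 22.8, 28.3 and 24.3 in RS, 0.249, 6.55 and 0.773 in EES and 0.754, 0.557 and 0.861 in LES. The lincRNA was at 0.0419, 0.0531 and 0.0407 RPKM in LZ, 0.0244, 0.0879 and 0.108 in PD, 1.97, 3.36 and 3.52 in RS, 0.0149, 1.48 and 0.050 in EES and 0.0665, 0.0277 and 0.0709 in LES. Outside RS, only the second EES library, which lies nearer to RS than the others of its stage, was above 1 RPKM in either gene. The log2 changes from RS to EES were -4.51 ± 0.86 and -4.46 ± 1.09 (adjusted p = 0.000355 and 0.00225, limma). The juvenile round spermatid library had 18.4 and 1.46 RPKM of these genes. Dyrk3, a kinase gene of the DYRK family, and the unannotated MSTRG.944, 43 bp away, fell from RS to EES by 4.49 ± 1.04 and 5.22 ± 0.70 (adjusted p = 0.00145 and 2.07e-05, limma).

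Dydc2/Dydc1 and MSTRG.3050/Ap1b1 moved apart between RS and EES. Dydc1 (chr14:41072851-41096952) and Dydc2 (chr14:41016069-41072716) encode proteins with a DPY30 domain and start 135 bp apart. Dydc2 was at 0.869, 0.797 and 1.19 RPKM in LZ, 0.0435, 0.0542 and 0.220 in PD, 0.840, 1.04 and 1.36 in RS, 72.4, 32.2 and 71.8 in EES and 74.8, 68.2 and 72.1 in LES. Dydc1 was at 0.229, 0.196 and 0.541 RPKM in LZ, 3.29, 4.08 and 7.07 in PD, 14.2, 19.5 and 17.0 in RS, 0.192, 3.34 and 0.493 in EES and 0.565, 0.326 and 0.652 in LES. The EES libraries were above all RS libraries for Dydc2 and below all of them for Dydc1. Dydc2 rose by 5.69 ± 0.47 and Dydc1 fell by 4.59 ± 0.76 (adjusted p = 4.17e-07 and 0.000118, limma), and the Dydc1 to Dydc2 ratio fell by 10.27 ± 0.94 (adjusted p = 1.94e-06, limma).

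Ap1b1, which encodes a subunit of the AP-1 clathrin adaptor, was at 10.8, 14.3 and 11.5 RPKM in RS and 0.758, 0.819 and 1.02 in EES. Its unannotated partner MSTRG.3050, 77 bp away, was at 0.0275, 0.129 and 0.247 RPKM in RS and 2.02, 0.858 and 1.52 in EES. The stages did not overlap in either gene: Ap1b1 fell by 3.81 ± 0.26 and MSTRG.3050 rose by 3.66 ± 0.57 (adjusted p = 1.20e-07 and 6.88e-05, limma).

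**Figure D3:**
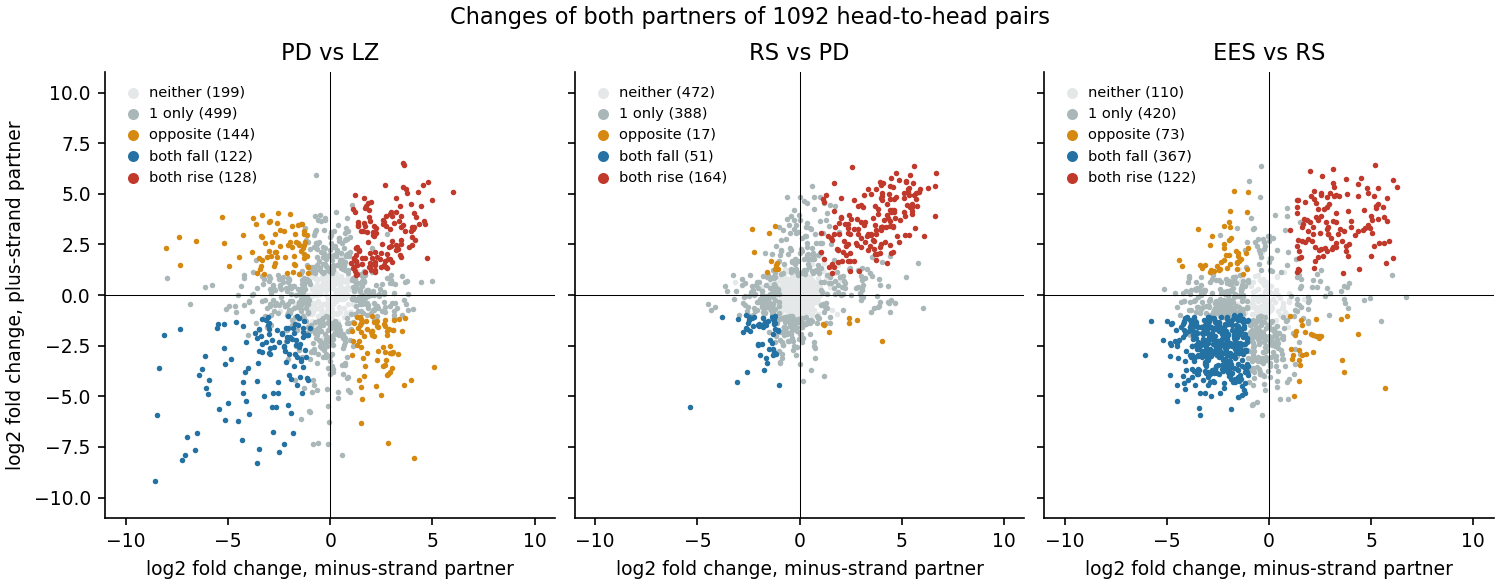
Log2 fold change of the plus-strand partner against that of the minus-strand partner for 1092 head-to-head pairs in 3 stage comparisons, each point a pair coloured by whether both partners rose, both fell, they were called in opposite directions, 1 was called or neither was. The 144 opposite pairs from LZ to PD fill the upper left and lower right quadrants, which hold 17 opposite pairs from PD to RS and 73 from RS to EES.

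Between early and late elongating spermatids no paired gene was called by limma at an adjusted p under 0.05 and a log2 change of at least 1 (0% of all tested genes), and 131 of the 2822 had an unadjusted p under 0.05. No ratio between partners was called either, and 90 of 1092 had an unadjusted p under 0.05. Leaving out the first LES library gave 1 call.

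Over all 5 stages, 2734 of the 2822 paired genes (96.9%) differed by limma's F test at an adjusted p under 0.05, against 97.2% of all tested de novo genes. The partner ratio differed in 993 of the 1092 pairs (90.9%), against 79.8% of neighbours on the same strand and 95.9% of convergent ones. Over all neighbouring pairs, which include the head-to-head pairs, it differed in 87.3%.

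Pairs of coding genes on both sides are given beside all pairs, without a test of the difference. Of the 299 tested, both rose in 17 from LZ to PD, in 16 from PD to RS and in 12 from RS to EES (5.69, 5.35 and 4.01%), against 11.7, 15 and 11.2% of all 1092 pairs. Both fell in 45, 14 and 119 (15.1, 4.68 and 39.8%), against 11.2, 4.67 and 33.6%. They were called in opposite directions in 40, 9 and 19 (13.4, 3.01 and 6.35%), against 13.2, 1.56 and 6.68%.

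Over the 15 libraries, partners tended to follow each other. The median Pearson correlation of the partners' log2 values was 0.67 over the 1092 pairs and 0.71 over the 588 without shared exons, and 0.68 over the 13 libraries that remain without the third LZ and the second EES library. It was above 0.9 in 216 pairs and below 0 in 256. By distance, it was 0.72 for the 304 pairs within 50 bp, 0.62 for 51 to 100 bp, 0.71 for 101 to 200 bp, 0.65 for 201 to 300 bp, 0.48 for 301 to 500 bp and 0.42 for the 98 pairs 501 to 1000 bp apart. Partners share their libraries and stages, so these values are descriptions. Neighbours in other orientations with a gap of 0 to 1000 bp, which stand beside them without a test of the difference, had a median of 0.75 on the same strand (837 pairs) and 0.38 when convergent (271 pairs). Without exons shared with the other strand these medians were 0.88 (266 pairs) and 0.42 (89 pairs).

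**Figure D4:**
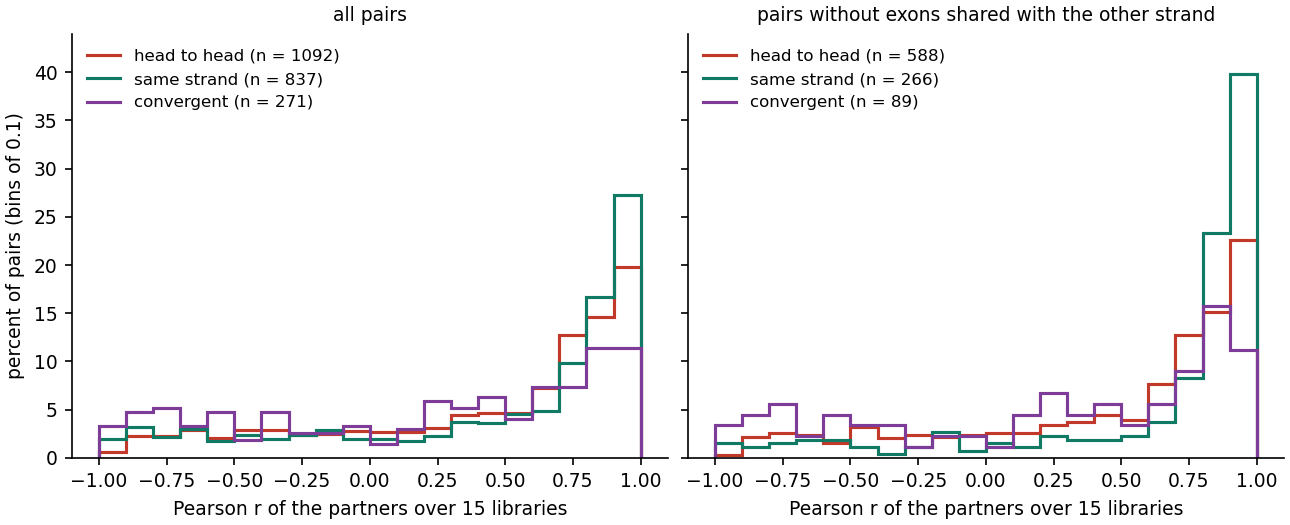
Percent of pairs (vertical axis) by Pearson correlation between partners across 15 libraries in bins of 0.1 (horizontal axis), for head-to-head, same-strand and convergent neighbours, with all tested pairs on the left and pairs without exons shared with the other strand on the right. Head-to-head pairs are most frequent in the highest bin, where 216 of 1092 lie, and 256 have a correlation below 0.

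How alike the partners' changes were at each step depended on the measure. The correlation across pairs of the partners' log2 changes was 0.29 from LZ to PD, 0.63 from PD to RS and 0.50 from RS to EES; pairs share libraries and are not independent replicates. Of the pairs with both partners called, 63.5, 92.7 and 87.0% moved the same way in the 3 steps. Over all 1092 pairs, called or not, the changes had the same sign in 58.0, 66.1 and 72.7%, so by this measure the last step was the highest. For neighbours on the same strand the shares of called pairs that moved the same way were 74.7, 88.7 and 80.3%, and for convergent neighbours 48, 66.7 and 66.7%. The ratio between partners changed in 660 head-to-head pairs (60.4%) from LZ to PD, in 367 (33.6%) from PD to RS and in 637 (58.3%) from RS to EES. The shares were 49.3, 29.3 and 47.6% of neighbours on the same strand and 70.5, 52.0 and 64.6% of convergent ones. Over all 2200 neighbouring pairs, which include the head-to-head pairs, they were 57.5, 34.2 and 55%. Both partners had their highest stage mean at the same stage in 412 pairs (37.7%), against 45.9% of neighbours on the same strand and 29.5% of convergent ones. Without shared exons these shares were 40.0, 61.7 and 31.5%.

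Unannotated partners were lower than their reference partners at every stage by the median, and gained on them from LZ to PD. In the 482 tested pairs with 1 reference gene, the median level of the reference genes was 5.34 RPKM in LZ, 3.42 in PD, 3.39 in RS, 2.33 in EES and 1.92 in LES. That of the unannotated partners was 0.490 RPKM in LZ, 1.07 in PD, 1.01 in RS, 0.802 in EES and 0.672 in LES. The unannotated partner was the higher of the pair in 52 pairs (10.8%) in LZ, 110 (22.8%) in PD, 109 (22.6%) in RS and 146 (30.3%) in each of EES and LES. From LZ to PD the ratio of the unannotated to the reference partner rose in 196 pairs and fell in 83 (limma), with 113 and 45 among the 274 pairs without shared exons. The later steps were near balance: the ratio rose in 74 and fell in 65 pairs from PD to RS, and rose in 143 and fell in 130 from RS to EES. The median changes of the ratio were 0.88, -0.02 and 0.27 on the log2 scale in the 3 steps. In 72 pairs the reference gene peaked in LZ and its unannotated partner in PD, and in 16 the reverse held. A partner that is low in LZ passes the filter of 1 RPKM in 3 libraries only through later stages. This favours gains out of LZ in the pairs counted here, and how far it shaped them was not tested.

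**Figure D5:**
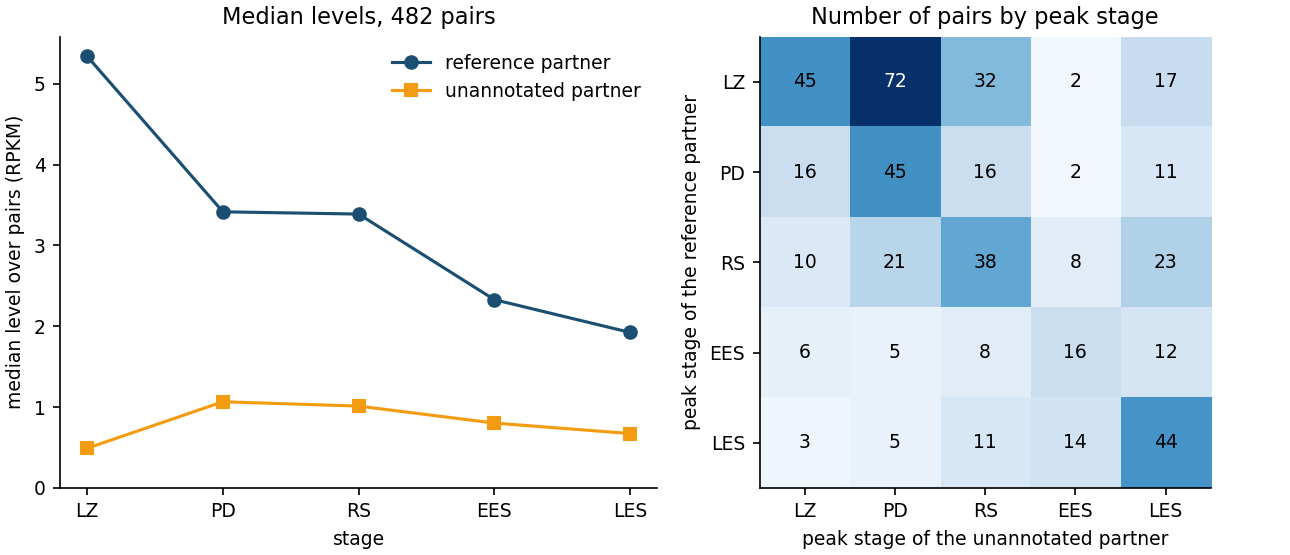
Left, median level in RPKM of reference genes and of their unannotated partners by stage in 482 pairs; right, number of pairs by peak stage of the reference gene and of the unannotated partner. The reference median falls from 5.34 RPKM in LZ to 1.92 in LES, and the largest cell away from the diagonal is that of reference genes peaking in LZ with partners peaking in PD (72 pairs).

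The 666 tested unannotated members and the 2156 tested reference members were also counted as single genes. The unannotated members rose in 220, 253 and 214 cases (33.0, 38.0 and 32.1%) in the 3 steps and fell in 154, 91 and 270 (23.1, 13.7 and 40.5%). The reference members rose in 544, 494 and 340 (25.2, 22.9 and 15.8%) and fell in 726, 322 and 1177 (33.7, 14.9 and 54.6%). Of all tested de novo genes 26.6, 30.2 and 23% rose and 32.3, 12.6 and 47.3% fell. In the 32 tested pairs of unannotated genes on both sides, both rose in 4, 18 and 18 (12.5, 56.3 and 56.3%). Of all 1092 pairs, both rose in 11.7, 15 and 11.2%. Both fell in 3, 1 and 1 of the 32 (9.4, 3.1 and 3.1%), against 11.2, 4.67 and 33.6% of all pairs. The median correlation of partners was 0.88. Only these 32 of 155 such pairs passed the filter of 1 RPKM in 3 libraries. Tested unannotated members had a median of 0.298 RPKM in LZ and 1.07 in EES. Low genes pass it through the stages where they are high, which favours rises into those stages and correlated partners. How far this shaped the values was not tested. MSTRG.2158/MSTRG.2159, on chromosome 10 with starts 47 bp apart, is 1 of the 32 pairs. MSTRG.2158 was at 0.0852, 0.0937 and 0.273 RPKM in PD, 2.94, 3.53 and 3.9 in RS and 14.1, 13.6 and 11.5 in EES. MSTRG.2159 was at 0.0112, 0.0403 and 0.0808 RPKM in PD, 0.731, 0.930 and 0.661 in RS and 5.57, 4.80 and 5.32 in EES. From PD to RS to EES each stage was above the one before it with no overlap. The log2 changes were 4.61 ± 0.39 and 4.08 ± 0.52 from PD to RS and 1.92 ± 0.39 and 2.75 ± 0.52 from RS to EES (adjusted p from 7.71e-07 to 0.000561, limma).

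Paired genes of the X chromosome fell from LZ to PD and rose again in round spermatids. Of the 21 tested, 19 fell and none rose from LZ to PD (limma; 507 fell and 7 rose of all 676 tested X genes), and 18 rose and none fell from PD to RS (492 rose and 10 fell of the 676). In 7 of the 8 X pairs with both partners tested both fell, and in 6 both rose afterwards. With quantile normalisation both rises were called in Ppp1r3f/Flicr and Gm14983/MSTRG.26902 alone, since 1 or both partners of the other 4 pairs missed the threshold: F8, Fundc2, Magt1 (1.05, adjusted p = 0.199), Med12 (0.25, adjusted p = 0.717) and MSTRG.26371 (1.19, adjusted p = 0.250). F8 (chrX:75172583-75382330), the gene of coagulation factor VIII, was at 3.34, 2.70 and 1.42 RPKM in LZ, 0.0185, 0.00667 and 0.0198 in PD, 0.176, 0.0740 and 0.145 in RS, 0.212, 0.201 and 0.201 in EES and 0.202, 0.150 and 0.240 in LES. Fundc2 (chrX:75382422-75395370), a gene of a mitochondrial outer membrane protein, was at 3.63, 2.99 and 2.45 RPKM in LZ, 0, 0.0225 and 0 in PD, 0.102, 0.0300 and 0.0468 in RS, 0.0762, 0.0285 and 0.0114 in EES and 0.150, 0.113 and 0.267 in LES. Both were high in LZ alone, and RS was above PD without overlap. F8 fell by 6.60 ± 0.44 and Fundc2 fell by 7.66 ± 0.63 from LZ to PD (adjusted p = 5.26e-08 and 3.07e-07, limma). From PD to RS F8 rose by 2.47 ± 0.44 (adjusted p = 0.000331, limma), but by 0.36 under quantile normalisation (adjusted p = 0.616). The rise of Fundc2 was 2.10 ± 0.63 (adjusted p = 0.0133, limma), but 0.23 under quantile normalisation (adjusted p = 0.833), and it missed the threshold without the first RS library (1.69, adjusted p = 0.0639), the first PD library (1.81, adjusted p = 0.0565) or the third PD library (1.81, adjusted p = 0.0528).

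Other X pairs differed in what followed. Hccs, which encodes the enzyme that attaches haem to cytochrome c, fell by 8.47 ± 0.40 from LZ to PD (adjusted p = 6.29e-09, limma) and was at 0.0111, 0.0243 and 0.0163 RPKM in RS. Its partner BC022960, a transcribed pseudogene 10 bp away, fell by 5.94 ± 0.97 and was at 5.25, 6.26 and 7.82 RPKM in RS, a rise of 4.82 ± 0.97 from PD (adjusted p = 0.000926, limma). The ratio of BC022960 to Hccs rose by 4.13 ± 0.93 from PD to RS (adjusted p = 0.0035, limma). In Magt1/Cox7b, Cox7b, a subunit gene of cytochrome c oxidase, had 757 reads over the LZ libraries, 1 over those of PD and 83 over those of RS. The ratio of LZ to PD after depth was 944-fold with an exact 95% counting interval of 169 to 37318. Intervals of this kind cover counting error only. Magt1, which encodes a magnesium transporter and glycosylation factor, was at 2.92, 1.90 and 1.35 RPKM in LZ, 0.00405, 0 and 0.00975 in PD and 0.155, 0.0696 and 0.0993 in RS.

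Ppp1r3f/Flicr on the X parted only after RS. Ppp1r3f, a regulatory subunit gene of protein phosphatase 1, was at 2.63, 1.80 and 1.71 RPKM in LZ, 0.0565, 0.0752 and 0.0360 in PD, 0.553, 0.823 and 0.607 in RS, and 0.0216, 0.210 and 0.0285 in EES. Flicr, a noncoding RNA gene that starts 312 bp away, was at 0.923, 1.24 and 0.751 RPKM in LZ, 0.0237, 0 and 0.0286 in PD, 0.812, 0.749 and 1.09 in RS, and 3.61, 1.73 and 2.37 in EES. No library of EES overlapped with RS in either gene. From RS to EES Ppp1r3f fell by 3.36 ± 0.61 and Flicr rose by 1.48 ± 0.46 (adjusted p = 0.000241 and 0.0104, limma), and the ratio of Flicr to Ppp1r3f rose by 4.84 ± 0.86 (adjusted p = 0.00035, limma).

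Repair genes in pairs fell more often than they rose at each step. Of 49 genes in the repair list, 11 were in pairs (22.4%), against 13.3% of all de novo genes. The share was also higher in the list of H2A and H2B histones (20%), but lower in the other lists used below. It was 10.96% for the mitochondrial ribosome, 6.35% for axoneme and flagellum, 4.29% for ribosomal proteins and 3.33% for meiosis. Differences between these shares were not tested. From LZ to PD 7 of the 11 fell and 3 rose, from PD to RS 3 fell and none rose, and from RS to EES 8 fell and 1 rose; over all 49 the falls were 22, 11 and 35 and the rises 7, 2 and 2. Among all tested de novo genes 32.3, 12.6 and 47.3% fell and 26.6, 30.2 and 23% rose. The medians of the 11 repair genes were -1.54, -0.17 and -1.58 on the log2 scale. Msh5, whose product acts with Msh4 at meiotic crossovers, was at 17.2, 14.1 and 16.1 RPKM in LZ and 2.32, 1.95 and 1.84 in PD, and fell by 2.95 ± 0.24 (adjusted p = 2.40e-07, limma). Its partner Clic1, a chloride channel protein gene 250 bp away, was at 1.22, 1.27 and 2.64 RPKM in LZ and 0.985, 1.09 and 1.19 in PD, and it rose from PD to RS by 2.35 ± 0.49 (adjusted p = 0.00121, limma). Xpc, the damage sensor of nucleotide excision repair, fell by 1.54 ± 0.26 from LZ to PD (adjusted p = 0.000139, limma), while its partner Lsm3, of the U6 RNA-binding ring, fell from 18.6, 16.9 and 16.1 RPKM in PD to 3.62, 3.00 and 2.79 in RS. Lig4, the ligase of DNA end joining, rose by 1.68 ± 0.54 from LZ to PD (adjusted p = 0.0150, limma) as its partner Abhd13 fell by 2.02 ± 0.57 (adjusted p = 0.0068); without the third PD library the rise of Lig4 was 1.49 with an adjusted p of 0.0563. With median centring the change of Fancm from LZ to PD was -0.98 and that of Palb2 from RS to EES was -0.97, both under the threshold of 1. Msh4 and Fancf missed the threshold from RS to EES with median centring (-0.60 and -0.80) and without several single libraries, for example without the first EES library (-0.72 and -0.95, adjusted p = 0.166 and 0.149).

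Of 25 genes in the list of H2A and H2B histones, 5 were in pairs (20%), namely the 4 described above and Hist1h2bf, whose partner is Hist1h3d. From LZ to PD 4 of the 5 fell and none rose, from PD to RS 1 fell, and from RS to EES 3 rose and none fell. Over the 24 tested genes of the list, 18 fell and 2 rose, then 16 fell and 1 rose, and then 3 fell and 7 rose. The last rise missed the threshold without the first RS library in Hist1h2ai (1.73, adjusted p = 0.0534) and Hist1h2ak (1.77, adjusted p = 0.0730). It lay near the floor: Hist1h2ai had 3 reads over the RS libraries and 20 over those of EES. With a pseudocount of 1 RPKM the rises of Hist1h2ai, Hist1h2ak and Hist1h2bn were 0.13, 0.10 and 0.37, under the threshold. With a pseudocount of 0.1 RPKM those of Hist1h2ai and Hist1h2ak were 0.80 and 0.69, also under it.

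Spata22, which works in meiotic recombination, was the 1 paired gene of 30 in the meiosis list, and its start is 9 bp from that of Aspa, the aspartoacylase gene. Spata22 was at 39.2, 27.1 and 38.5 RPKM in LZ, 6.85, 5.89 and 2.95 in PD and 0.624, 0.417 and 0.405 in RS, and Aspa was at 4.05, 3.41 and 4.12 in LZ, 2.56, 2.55 and 1.63 in PD and 0.886, 0.719 and 0.606 in RS. In both genes each of these stages was below the one before it without overlap. Spata22 fell by 2.80 ± 0.45 and then by 3.35 ± 0.45 (adjusted p = 9.62e-05 and 3.58e-05, limma), Aspa changed by -0.80 ± 0.34 from LZ to PD, which was not called (adjusted p = 0.0501, limma), and fell by 1.58 ± 0.34 from PD to RS (adjusted p = 0.0014, limma). The ratio of Spata22 to Aspa changed by -2.0 ± 0.31 from LZ to PD (adjusted p = 9.87e-05, limma).

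All 4 paired axoneme and flagellum genes (Odf2, Cfap99, Ift140 and Ift74) rose from LZ to PD, as 50 of the 62 tested genes of that list did. Odf2, an outer dense fibre gene, was at 33.6, 34.7 and 66.9 RPKM in LZ, 196, 186 and 247 in PD and 1290, 773 and 1305 in EES. The rise of Ift74 was 1.3 ± 0.41 (adjusted p = 0.0119, limma) and 1.11 without the second LZ library (adjusted p = 0.0553), and with quantile normalisation it was 0.83, under the threshold of 1. From RS to EES Odf2 rose by 1.78 ± 0.31 (adjusted p = 0.000174, limma) and the other 3 fell. Over the 62 tested genes of the list, 4 rose and 49 fell from RS to EES. Odf2 was not called with quantile normalisation (0.48, adjusted p = 0.125), and Ift74 was not called at this step with median centring (-0.63), without the first EES library (-0.81, adjusted p = 0.0698) or without the third RS library (-1.06, adjusted p = 0.0541). Odf2, Cfap99 and Ift140 share exon bases with the other strand. Of the 6 paired ribosomal protein genes, 2 fell from LZ to PD and 2 from RS to EES, and 1 rose from PD to RS. Over the 134 tested genes of that list, 26, 11 and 45 fell and 9, 7 and 10 rose in the 3 steps. The fall of Rps16 from LZ to PD was not called with quantile normalisation (-0.66, adjusted p = 0.311). That of Rpl27a from RS to EES was not called with median centring (-0.58), with quantile normalisation (-0.59) or without the first or the third EES library (-0.85 and -0.92, adjusted p = 0.0666 and 0.0662). Of the 8 paired mitochondrial ribosome genes, 2 rose and 1 fell from LZ to PD, 1 fell from PD to RS, and 1 rose and 3 fell from RS to EES. Over the 72 tested genes of that list, 16, 3 and 4 rose and 10, 11 and 47 fell in the 3 steps. The calls of Mrps7 (a rise) and Mrps17 (a fall) from LZ to PD missed the threshold without the first LZ library (0.92 and -1.39, adjusted p = 0.159 and 0.069) and without each PD library, and that of Mrps7 also with quantile normalisation (0.44, adjusted p = 0.308). The fall of Mrpl40 from PD to RS was under the threshold of 1 without the first PD library (-0.94). The fall of Mrps2 from RS to EES was not called with median centring (-0.52), with quantile normalisation (-0.44), or without the second or the third RS library or the first or the third EES library (adjusted p from 0.0646 to 0.137). Mrpl15 rose by 1.41 ± 0.20 at the last step (adjusted p = 2.77e-05, limma) beside its partner Lypla1, a thioesterase gene, which rose by 4.69 ± 0.23 (adjusted p = 5.47e-08, limma).

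The promoters of paired coding genes were rich in G, C and CpG. The RefSeq window of 300 bases nearest to the start was used, from 250 bases before to 50 after the RefSeq start; 1467 of the 1818 coding members (80.7%) had one, at a median offset of 141 bp. Their median GC content was 66.3%, against 59.7% in 8915 tested coding genes outside pairs and 52.7% over all 32851 windows. The median ratio of observed to expected CpG was 0.87, 0.74 and 0.38 in these sets. The letters GGGCGG (the SP1 motif, searched on both strands like all that follow) were in 71.0, 59.0 and 35.7% of the windows, and TATAAA in 5.11, 7.77 and 13.6%.

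Shares of motif letters are given next for genes that changed, without a test. TGACGTCA, a motif bound by CREB and CREM, was in 7.03% of the windows of the 256 paired coding genes that rose from PD to RS. It was in 2.81% of those of the 1956 unpaired coding genes that rose. Its share was 4.16% in all paired coding genes, 3.03% in the 8915 unpaired coding genes and 1.79% in all windows. The shorter form TGACGT, which every TGACGTCA also holds, lies between the starts of MSTRG.4238 and Phospho1 and, on the other strand, between those of Hist1h2bl and Hist1h2ai. CAACNG, a loose MYB motif, was in 40.7% of the windows of paired coding genes that rose from LZ to PD and in 28.4% of those that fell, with 40.5 and 31.8% in unpaired genes and 35.0% over all windows. CCAAT, the NFY motif, was in 36.5% of the windows of paired coding genes and 37.4% of all windows, and it lies between the starts of Hspd1 and Hspe1. A match of letters is a description of the window and not a measured binding site.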

How the data were processed

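RNA of sorted mouse male germ cells was sequenced in 17 libraries. Per the submitters' processing notes, Trim Galore and STAR were used, and GRCm38 and mm10 are the builds named. For the read counting, the tool and strand setting are not given in the sources. Per the file headers, the de novo annotation was assembled with StringTie 1.3.4d; its values are positions of transcripts and exons. The authors deposited log2 values per de novo gene, which are log2 of 100 times RPKM plus 1 (reads per kilobase of exon, scaled to library size), so the pseudocount is 0.01 RPKM; this was checked on the whole-read steps of the values. All levels were turned back to RPKM, and a level compared between genes is per length.

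Genes with at least 1 RPKM in at least 3 of the 15 stage libraries were fitted together on the deposited log2 values with limma 3.58.1 (R 4.3.3; trended empirical Bayes, Benjamini-Hochberg adjustment over all genes tested), after a test on simulated data. Contrasts compared each stage with the one before, and a second fit tested the log2 ratio of neighbouring genes. Pairs, classes and counts came from Python 3.11.15 with pandas 2.3.3, numpy 2.4.6 and scipy 1.17.1. Reference genes were GENCODE M21 genes with an exon overlapping on the same strand.

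Pairs named in the text are those with the highest level of the weaker partner, the largest shared, opposite or ratio changes per step, the textbook pairs, and the members of the gene lists; some of these are not reported here. Counts and the same ranking over pairs without shared exons, and the X pairs, were added after the values were seen. The members and lists were chosen with earlier results of these data known. The planned windows centred between the starts needed a genome, so RefSeq promoter windows were used. Same-numbered libraries did not deviate together (correlations of -0.24 to 0.17), so replicate numbers were not used as pairs. Alternatives covered scaling, pseudocount, filter, trend, distance, exon number and each library left out.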

Additional observations from a re-analysis of the deposited data

How the results depend on the processing

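Pair counts followed the rule: 1006 pairs had at least 2 exons on both sides, and 4038 pairs arose when starts overlapping by up to 1000 bp were allowed. Median centring gave falls in 23.5% of paired genes from PD to RS (14.6% as deposited), both partners falling in 9.43% and opposite calls in 2.47% of pairs at that step, and both falling in 21.2% from RS to EES. Quantile normalisation gave 25.2% falls, 8.06% both rising, 10.4% both falling and 2.56% opposite from PD to RS, and 21% both falling from RS to EES. A pseudocount of 1 RPKM, which shrinks changes of low genes, gave from PD to RS 13.4% rises, 6.73% falls, 21.6% changed ratios, 4.3% both rising, 1.1% both falling and 0.366% opposite; from LZ to PD 5.59% both falling and 7.33% opposite; and from RS to EES 31.2% falls, 6.5% both rising, 12.1% both falling and 2.01% opposite. Requiring 1 RPKM in 6 libraries left both falling in 5.73% of pairs from LZ to PD and 2.78% from PD to RS. Leaving out single libraries moved both falling to between 6.87 and 13.0% from LZ to PD and between 2.54 and 5.04% from PD to RS, and calls from EES to LES to between 0 and 1. With fewer libraries, a gene expressed at 1 stage fails the filter of 3 libraries. Both partners peaked at the same stage in 35.2 to 38.4% of pairs with single libraries left out, in 34.4% without the third LZ and the second EES library, and in 42.7% with EES and LES taken as 1 stage. The fit with a replicate block gave 26.8% rises and 30.7% falls from LZ to PD and changed no count of calls by over 1.5 times.

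Of 397 results on named genes and ratios, 143 changed their call under at least 1 of 24 alternatives. A pseudocount of 1 RPKM took 113 under the threshold, among them the changes of MSTRG.15529, MSTRG.3060, Znrf3, Aspa and MSTRG.2159 from PD to RS; quantile normalisation took 48 and the replicate block 6. Signs reversed for Gpam from PD to RS with quantile normalisation (-0.67) and for the partner ratio of Rpl7/MSTRG.85 from LZ to PD (0.67). With a pseudocount of 1 RPKM the ratio change reversed from LZ to PD in Sept14/Mrps17 (-0.02), Hccs/BC022960 (-0.82), MSTRG.4238/Phospho1 (0.36), MSTRG.4472/MSTRG.4473 (-0.75) and MSTRG.4515/Wnt3 (0.10), from PD to RS in MSTRG.4238/Phospho1 (-0.24), and from RS to EES in Rps13/Gm44777 (-0.19) and MSTRG.9365/Tmem106c (0.12). The cause was not tested.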
